A study of Mus musculus with 12 samples.

Results

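Ndufa4l2 and 7 genes known as targets of the hypoxia response (Vegfa, Slc2a1, Bnip3, Egln3, Hk2, Ldha and Ankrd37) were followed across the 12 libraries of a mouse urogenital sinus RNA-seq series. These 8 genes, found by symbol, are 8 of the 56495 genes in the table, and all 8 passed the filter of at least 1 FPKM (fragments mapped to a gene relative to gene length and library size) in at least 3 libraries. Ndufa4l2 was selected on its higher values in mutant than in wild type males. Its values in that comparison are thus a description, and nothing is read from its test result there. The other 7 were named beside it with earlier results of these data known, so the same holds for them.

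The tissue came from embryos at E18.5: the bladder was cut away, and the piece kept held the proximal urethra, plus the vagina in females. Wild type and mutant embryos of each sex gave 3 libraries per group, in 4 groups. Mutants carried Inv(Itga6-nsi)d11lac, the name of an inversion between Itga6 and a point called nsi together with an allele called d11lac. No agent or oxygen treatment is named for any group. Whether replicates were different embryos is not stated. A p-value then reflects only how far these libraries scatter, and part of that scatter may be technical.

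Cells sense low oxygen through hypoxia-inducible factors (HIF). Prolyl hydroxylases, among them the product of Egln3, mark the HIF alpha subunits for destruction by the Vhl ubiquitin ligase when oxygen is present. When oxygen is short, HIF1A or EPAS1 pairs with ARNT and binds the core motif ACGTG or GCGTG near target genes, which raise glucose uptake, glycolysis, vessel growth and mitochondrial turnover. NDUFA4L2, a paralog of the respiratory chain subunit NDUFA4, is a known HIF1 target that lowers mitochondrial oxygen use, and it is also known as a transcript abundant in pericytes.

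The sequence before the start of 7 of the 8 genes was found in RefSeq (build GRCm38.p6). Ndufa4l2 was not matched. The 4 stretches below show the range among the members, from the 3 with the most copies of the HIF core motif to the first Vegfa start with none. Each is the 250 bases before an annotated start, 5′ to 3′ on the gene's strand, and capitals mark ACGTG or GCGTG on either strand (CACGT or CACGC when read on the strand shown). Overlapping matches were counted separately, so CACGTG counts as 2.

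Ldha, chr7:46845554-46845803, plus strand: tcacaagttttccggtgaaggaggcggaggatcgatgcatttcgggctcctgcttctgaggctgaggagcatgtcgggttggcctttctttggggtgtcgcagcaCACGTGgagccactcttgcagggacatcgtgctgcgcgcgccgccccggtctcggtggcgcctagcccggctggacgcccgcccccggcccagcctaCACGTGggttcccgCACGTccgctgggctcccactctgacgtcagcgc

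Bnip3, chr7:138909507-138909756, minus strand: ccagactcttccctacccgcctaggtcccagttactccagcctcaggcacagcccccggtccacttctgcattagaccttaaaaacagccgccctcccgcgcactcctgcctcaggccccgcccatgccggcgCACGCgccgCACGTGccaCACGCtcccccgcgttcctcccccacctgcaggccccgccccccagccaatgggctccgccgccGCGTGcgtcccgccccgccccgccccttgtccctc

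Ankrd37, chr8:45999851-46000100, minus strand: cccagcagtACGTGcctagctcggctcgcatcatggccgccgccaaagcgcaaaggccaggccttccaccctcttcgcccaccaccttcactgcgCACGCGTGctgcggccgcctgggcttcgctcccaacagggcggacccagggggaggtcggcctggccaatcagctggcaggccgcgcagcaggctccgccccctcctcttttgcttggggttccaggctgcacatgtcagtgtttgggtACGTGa

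Vegfa, chr17:46032378-46032627, minus strand: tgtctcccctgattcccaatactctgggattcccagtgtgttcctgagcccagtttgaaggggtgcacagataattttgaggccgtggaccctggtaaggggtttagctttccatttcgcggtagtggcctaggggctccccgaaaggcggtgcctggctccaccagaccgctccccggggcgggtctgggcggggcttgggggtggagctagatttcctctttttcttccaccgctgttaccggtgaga

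The Ldha stretch held 5 matches, in 2 CACGTG palindromes and a single CACGT. Bnip3 held 5 and Ankrd37 held 4. Slc2a1 held 2, Hk2 held 2 and Egln3 held 1, while a second Vegfa start held 2 and a second Ldha start held 1. In all, 8 of the 9 stretches of the members held at least 1 match, against 38.6% of the 32851 RefSeq stretches of the same length. A wider list was made of 40 other textbook HIF targets. RefSeq stretches were found for 31 of them, and 39 of these 48 stretches (81.2%) held a match. A match describes letters in this window and is no evidence of binding.

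Values below are scaled FPKM: a library's FPKM were divided by the median of its gene-wise ratios to the average library. Because FPKM is per length, levels can be compared between genes. Ldha, which encodes the lactate dehydrogenase subunit that turns pyruvate into lactate, had the highest level of the 8, and Ankrd37, an ankyrin repeat protein known as a HIF1 target, the lowest. Reads of Ldha can be shared with processed pseudogene copies, so its absolute level is uncertain.

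Ndufa4l2 (ENSMUSG00000040280, chr10:127350836-127353023 in mm39, as are the positions that follow) read 17.8, 26.7 and 26.6 in wild type females 1 to 3. It read 5.63, 7.65 and 12.9 in the wild type males. In the mutant females it spread from 17.2 through 45.1 to 71.2, and in the mutant males it read 28.7, 21.5 and 21.9. The 3 wild type males thus held the lowest values of all 12 libraries, and they did not overlap with any other group. The group means were 8.74 ± 3.78 in wild type males, 23.7 ± 5.12 in wild type females, 24.0 ± 4.07 in mutant males and 44.5 ± 27.0 in mutant females (SD, n = 3). The middle pair differed by less than their spread, and the mutant female range took in both.

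**Figure D1:**
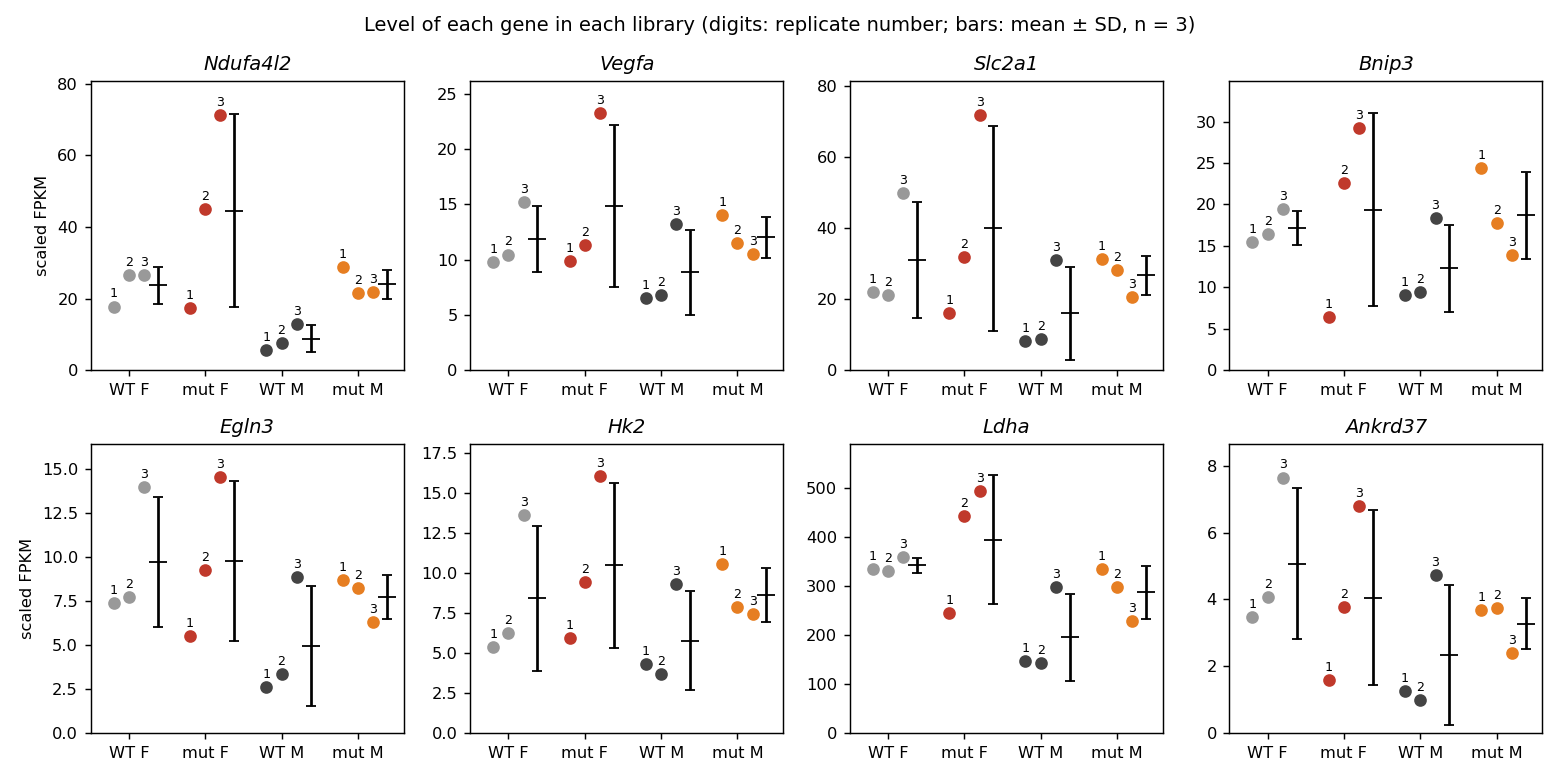
Scaled FPKM (vertical axis, from 0, scaled separately for each gene) in wild type (WT) and mutant (mut) females (F) and males (M), with 1 point per library, digits for the replicate number and bars for the group mean ± SD (n = 3). Wild type males 1 and 2 were the lowest libraries for 7 of the 8 genes, all but Bnip3, and mutant female 3 was the highest for 7, all but Ankrd37.

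Slc2a1 (ENSMUSG00000028645, chr4:118965908-118995180) encodes GLUT1, a glucose transporter of many growing tissues. It read 22.1, 21.05 and 49.8 in wild type females, 8.17, 8.83 and 31.0 in wild type males, 16.0, 31.8 and 71.9 in mutant females and 31.2, 28.3 and 20.6 in mutant males. Replicate 3 was the highest of both wild type groups and of the mutant females, and the lowest of the mutant males. Hk2 (ENSMUSG00000000628, chr6:82702006-82751435), the hexokinase that traps glucose in the cell, also had its highest value in replicate 3 of both wild type groups and of the mutant females. Its values were 5.39, 6.25 and 13.6 in wild type females, 4.29, 3.68 and 9.30 in wild type males, 5.94, 9.42 and 16.1 in mutant females and 10.6, 7.84 and 7.44 in mutant males. No pair of groups was free of overlap for Slc2a1 or Hk2 in a comparison of genotypes within a sex or of sexes within a genotype.

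Ldha (ENSMUSG00000063229, chr7:46490899-46505051) read 335, 330 and 360 in wild type females. Wild type males 1 and 2 stood at 146 and 142, under the third male at 297. Mutant females read 245, 443 and 494, and mutant males 335, 298 and 229. The wild type females were above all 3 wild type males, while the genotypes overlapped in each sex.

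Bnip3 (ENSMUSG00000078566, chr7:138492565-138511235), a mitophagy receptor, read 15.5, 16.4 and 19.4 in wild type females and 9.07, 9.40 and 18.4 in wild type males. Mutant female 1 had the lowest value of all 12 libraries at 6.44, while mutant females 2 and 3 read 22.5 and 29.2. Mutant males read 24.3, 17.8 and 14.0. The mutant female group therefore reached both below and above every wild type library.

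Vegfa (ENSMUSG00000023951, chr17:46327919-46343295) encodes the growth factor that drives vessel sprouting. It read 9.79, 10.5 and 15.2 in wild type females, 6.49, 6.78 and 13.2 in wild type males, 9.90, 11.3 and 23.3 in mutant females and 14.0, 11.5 and 10.5 in mutant males. Mutant female 3 was the highest library, and wild type males 1 and 2 the lowest.

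Egln3 (ENSMUSG00000035105, chr12:54225767-54250646), a prolyl hydroxylase that is itself a HIF target, read 7.39, 7.73 and 13.9 in wild type females and 2.60, 3.37 and 8.84 in wild type males. It read 5.48, 9.28 and 14.6 in mutant females and 8.68, 8.21 and 6.29 in mutant males. Ankrd37 (ENSMUSG00000050914, chr8:46449939-46452904) read 3.47, 4.07 and 7.65 in wild type females and 1.26, 0.995 and 4.74 in wild type males. It read 1.58, 3.78 and 6.81 in mutant females and 3.69, 3.75 and 2.38 in mutant males. For both genes, wild type male 3 was above the lowest library of each other group.

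The 8 genes varied between libraries of 1 group far more than most genes. The within-group SD on the log2 scale ran from 0.43 for Ldha to 0.84 for Slc2a1, against a median of 0.16 over the 13904 genes tested. Between 94.2% and 99.0% of the genes tested had a smaller SD than a member.

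In females, which were not used to choose Ndufa4l2, 0 of the 8 genes passed the test between mutant and wild type (limma, Benjamini-Hochberg adjusted p under 0.05), and 0 did at an unadjusted p under 0.05. Over all genes tested, 40.9% had an unadjusted p under 0.05 and 28% passed, 12.1% higher and 15.9% lower in the mutants. Ndufa4l2 differed by 0.70 on the log2 scale (SE 0.43, limma adjusted p = 0.245), with 2 of 3 mutant females above every wild type female. The other differences ran from -0.40 for Ankrd37 (SE 0.52, limma adjusted p = 0.596) to 0.30 for Hk2 (SE 0.42, limma adjusted p = 0.615). The 8 genes had a median of 0.18, with 5 above 0 and 3 below, while all genes had a median of 0.0048. With scaling to the library sum instead, Slc2a1 and Ldha also fell below 0, at -0.017 and -0.099. The groups overlapped for all 8 genes, and 42.6% of all genes had groups without overlap. Leaving out mutant female 1 raised the Ndufa4l2 difference to 1.27 (limma adjusted p = 0.0139) and made it the 1 member to pass. Over all alternative settings and left-out libraries, this difference ran from 0.26 to 1.27 (limma adjusted p from 0.0139 to 0.654).

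Mutant female 1 stood apart in other ways as well. Its summed epithelial markers (6 genes such as Epcam and Krt8) came to 835 scaled FPKM, against 259 to 494 in the other 11 libraries, and its summed endothelial markers were the lowest at 86.3, against 118 to 157. The part of tissue makeup in its low hypoxia gene values was not tested. In bulk tissue, fewer cells of a type and less RNA per cell cannot be told apart.

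In males, the comparison that chose Ndufa4l2, all 8 genes had higher mean log2 values in the mutants. The difference was 1.47 for Ndufa4l2, a 2.78-fold higher level, and its libraries did not overlap between genotypes. For the others it ran from 0.48 for Vegfa through 0.63 for Bnip3, Ldha, Ankrd37 and Hk2 and 0.76 for Egln3 to 0.97 for Slc2a1, and the groups overlapped for each of the 7 because wild type male 3 lay among or above the mutants. The median of the 8 was 0.63, and that of all genes was -0.0006. Because the choice of Ndufa4l2 fixes its place here, nothing is read from the count of members past the limma threshold, which was 1 of 8 (Ndufa4l2), where 20.3% of all genes did (8.64% higher and 11.6% lower in the mutants), and 43.5% of all genes had groups without overlap. Without wild type male 3 the differences were larger, at 1.24 for Egln3 and 0.97 for Ldha. For a gene chosen on this comparison, the threshold is no test. Without wild type male 1 or 2 or any 1 of the mutant males, Ndufa4l2 was no longer past it. Its difference then ran from 1.21 to 1.55.

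**Figure D2:**
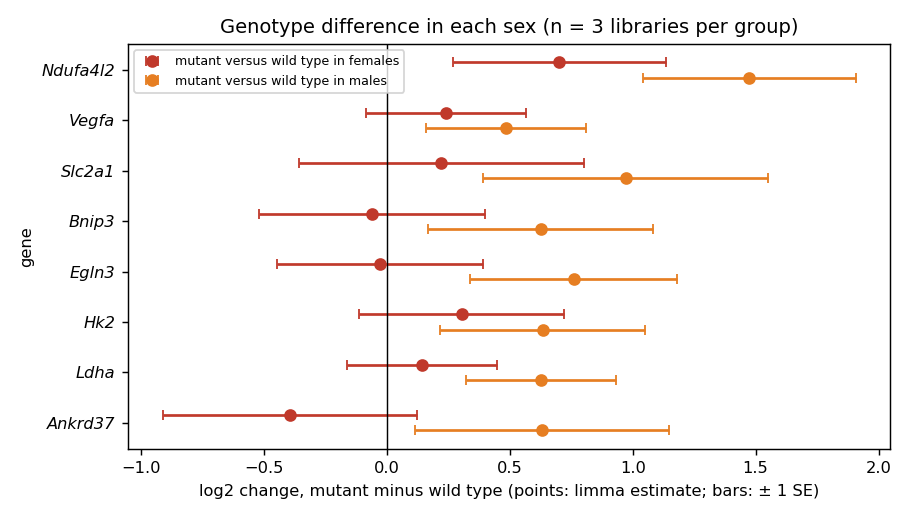
Difference between mutant and wild type on the log2 scale for each gene in females and in males, as the limma estimate with bars of 1 SE either way (n = 3 libraries per group). The male estimate lies to the right of the female one for all 8 genes, and the bars of the sexes overlap for all 8.

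The difference of the mutant effect between the sexes shares the male libraries with the choice of Ndufa4l2. It was above 0 for all 8 genes, from 0.24 for Vegfa to 1.03 for Ankrd37 with a median of 0.72, and 0.77 (SE 0.61) for Ndufa4l2. None of the 8 passed the limma test, with adjusted p from 0.688 to 0.882, and 0 had an unadjusted p under 0.05. Of all genes, 0% passed, though 1225 had an unadjusted p under 0.05. A mutant effect that differs between the sexes was therefore not shown for these genes.

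Between the sexes in wild type, all 8 genes had lower mean log2 values in males, with a median of -0.96 against 0.006 over all genes. The differences were -1.44 for Ndufa4l2 (limma adjusted p = 0.104), -1.14 for Ankrd37 (0.272), -1.09 for Slc2a1 (0.349), -1.02 for Egln3 (0.230) and -0.89 for Ldha (0.152). None passed after adjustment, where 3.18% of all genes did, and 4 (Ndufa4l2, Ldha, Egln3 and Ankrd37) had an unadjusted p under 0.05, as did 18.3% of all genes. Groups did not overlap for Ndufa4l2 and Ldha, 2 of 8, as for 31.8% of all genes. Without wild type male 3, Egln3 (-1.50, limma adjusted p = 0.0463) and Ldha (-1.24, limma adjusted p = 0.0288) passed. Ndufa4l2 passed without mutant female 1 (limma adjusted p = 0.0138) or mutant female 3 (limma adjusted p = 0.0438), libraries that enter only through the shared spread. These wild type males are the same libraries that form the base of the male genotype comparison, which chose Ndufa4l2. Its low values in them are thus part of that choice. For Ndufa4l2 the values here are a description, and its p-values are not read as a test.

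Between the sexes in the mutants, 0 of the 8 genes passed, 0 had an unadjusted p under 0.05, and the groups overlapped for all 8. Of all genes, 7.49% passed, 24.8% had an unadjusted p under 0.05 and 24.7% had no overlap. The median difference was -0.22, with Ndufa4l2 at -0.67 (SE 0.43, limma adjusted p = 0.365). Without mutant female 1 the Ndufa4l2 difference was -1.23 (limma adjusted p = 0.0399). Over all alternative settings and left-out libraries, it ran from -1.23 to -0.23 (limma adjusted p from 0.0399 to 0.759). The mutant males also entered the comparison that chose Ndufa4l2, so for this gene the values are a description. So are those of the other 7, which were named with earlier results of these data known.

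The 8 genes went up and down together from library to library. Taking each gene's log2 deviation from its own mean over the 12 libraries, the 7 genes other than Ndufa4l2 averaged -1.02 and -1.01 in wild type males 1 and 2, but 0.27 in wild type male 3. They averaged -0.06, 0.01 and 0.70 in wild type females, -0.53, 0.34 and 1.03 in mutant females, and 0.34, 0.13 and -0.20 in mutant males. All 8 genes were above their mean in wild type female 3, mutant females 2 and 3 and mutant males 1 and 2. All 8 were below it in wild type males 1 and 2 and mutant female 1.

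**Figure D3:**
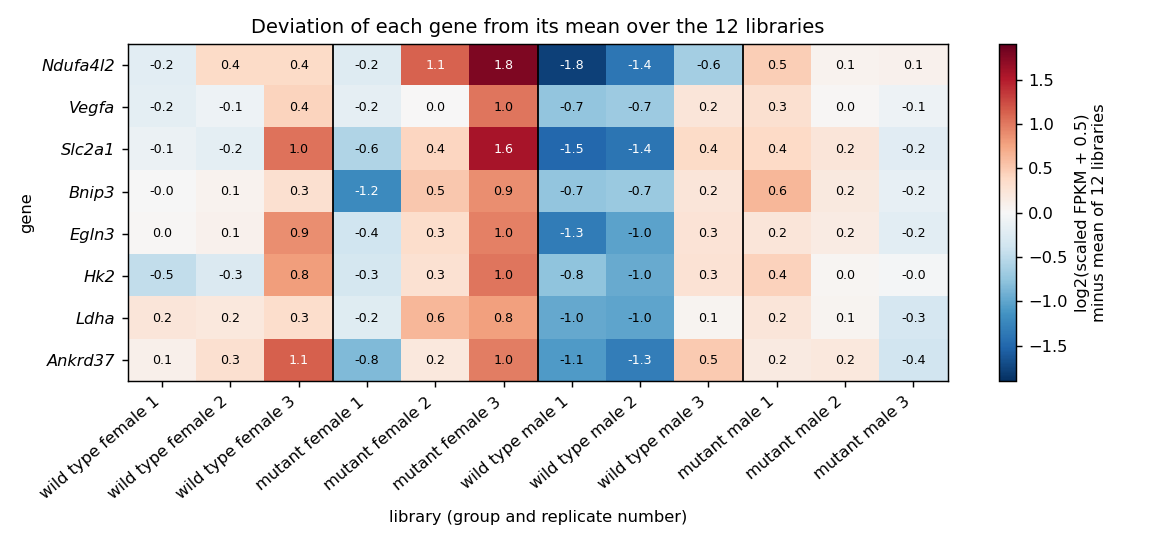
Log2 deviation of each gene from its own mean over the 12 libraries, with rows for genes and columns for libraries in 4 groups. Red is above and blue below the mean. Columns tend to have 1 colour from top to bottom, and libraries of 1 group differ in sign, as in wild type males 2 and 3 or mutant females 1 and 3.

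Ndufa4l2 had a Pearson r of 0.92 with Ldha, 0.86 with Slc2a1, 0.86 with Egln3, 0.84 with Vegfa, 0.81 with Hk2, 0.76 with Bnip3 and 0.75 with Ankrd37 over the 12 libraries. The median r was 0.841 and the median Spearman rho 0.776, against a median r of -0.03 over all genes tested, of which 20.7% had an r above 0.5. With each group's mean subtracted, so that genotype and sex no longer enter, the median r was 0.855 and the range 0.81 for Hk2 to 0.95 for Bnip3. Without this subtraction, the median r was 0.873 over the 6 wild type libraries and 0.922 over the 6 mutant libraries. It was 0.801 over the 6 female libraries and 0.8655 over the 6 male libraries. How far the 7 genes stood out from all genes tested differed between these sets. Over the 12 libraries, 93.4% to 99.6% of genes had a lower r than each of the 7. This range was 79.5% to 96.7% in wild type and 94.7% to 99.25% in mutants. It was 83.8% to 97.9% in females and 79.8% to 89.6% in males. Among the 7 others, the 21 pairs had a median r of 0.881, or 0.929 with group means subtracted. These are descriptions over libraries that share depth, base composition and, before subtraction, group differences. The r over the 12 libraries and over the 6 male libraries also take in the male difference on which Ndufa4l2 was chosen.

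The relation was weaker without the 2 libraries farthest from the median of Ndufa4l2. Without wild type male 1 and mutant female 3, the median r fell to 0.659 over 10 libraries, with a range from 0.587 to 0.849. The share of all genes tested with an r above 0.5 fell as well, from 20.7% over the 12 libraries to 12.4% over these 10. Leaving out mutant female 1, with group means subtracted, gave a median of 0.831 over 11 libraries. Ndufa4l2 parted from the others in places. In wild type male 3 it stood 0.65 below its mean while the other 7 averaged 0.27 above theirs, and in mutant male 3 it stood 0.087 above its mean while all 7 were below theirs, with an average of -0.20.

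**Figure D4:**
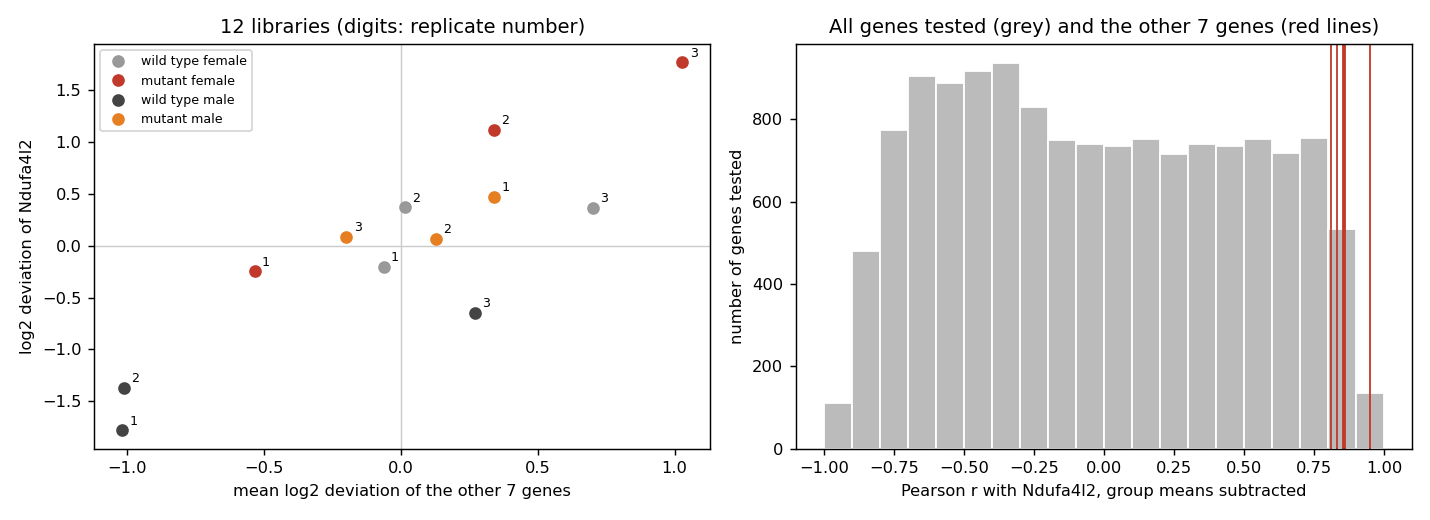
Left: log2 deviation of Ndufa4l2 against the mean log2 deviation of the other 7 genes, with 1 point per library, coloured by group and marked with the replicate number. Right: number of genes tested (grey) by Pearson r with Ndufa4l2 over 12 libraries with group means subtracted, with red lines for the 7 genes, which lie from 0.81 to 0.95.

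The 10 genes most like Ndufa4l2 over the 12 libraries were Xrcc1 (r = 0.98), Snd1 (0.97), Pabpc4 (0.97), Mpnd (0.97), Nedd9 (0.97), Itm2c (0.96), Gpi1 (0.95), Shmt2 (0.95), Sh3pxd2b (0.95) and Cad (0.95). Gpi1, a glycolytic isomerase, is the only gene among them that is also on the wider hypoxia list. Of the 7 others, Ldha came highest, at rank 55 of the genes tested. Xrcc1, a DNA repair scaffold, read 17.7, 18.2 and 22.4 in wild type males and 24.2, 29.0 and 33.1 in mutant females. Its range was thus far narrower than that of Ndufa4l2, where the same libraries ran from 5.63 to 71.2.

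The wider list of 40 HIF targets had 38 genes past the filter. Car9, which read at most 1.07 in any library, and Epo, the erythropoietin gene, which was listed at 0 in 11 of 12, did not pass. In females 0 rose and 3 fell of the 38, where 12.1% of all genes were called higher and 15.9% lower, and the median difference was 0.09. Those that fell were Plod2, a collagen lysyl hydroxylase (-0.67, limma adjusted p = 0.0260), Tfrc, the transferrin receptor (-0.69, limma adjusted p = 0.0278), and Bnip3l, a mitophagy receptor (-0.41, limma adjusted p = 0.0328). In males 1 rose and 0 fell, where 8.64% of all genes were called higher and 11.6% lower, with a median of 0.30. This was Eno1, the glycolytic enolase, which read 64.6, 60.4 and 97.7 in wild type males and 153, 173 and 114 in mutant males (0.99, limma adjusted p = 0.0239). These counts moved with single libraries. In females 7 genes passed without mutant female 1, now 6 higher and 1 lower (12.6% and 16.3% of all genes), and 0 without any 1 of the wild type females. In males 10 passed without wild type male 3, of them 8 higher and 2 lower (7.74% and 9.19% of all genes). Without mutant female 1, 7 passed in males, all higher, where 13.5% of all genes were called higher and 28.5% in either direction. Also in males, 2 passed without mutant female 3, and 0 when wild type male 1 or mutant male 1 or 2 was left out. Eno1 itself no longer passed without wild type male 1 or 2 or mutant male 1 or 2, Tfrc without mutant female 1, and Bnip3l without any 1 of the mutant females.

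Most of the wider list moved with Ndufa4l2 across libraries. Of the 38 genes, 23 had an r above 0.5 over the 12 libraries (median 0.660), beside 20.7% of all genes tested. With group means subtracted, 31 of the 38 did (median 0.781), beside 20.8% of all genes tested. Over the 12 libraries, Egln1, the main oxygen-sensing hydroxylase, had an r of 0.92, as did the glycolytic genes Tpi1 (0.92), Aldoa (0.92) and Pfkl (0.92). Genes that went the other way included Angptl4, a secreted lipase inhibitor (-0.64), Pfkfb4 (-0.54) and Hmox1, a heme oxygenase (-0.51). Angptl4 read 15.6, 17.5 and 5.41 in wild type males, high where the members were low. These list genes, apart from Eno1, Plod2, Tfrc and Bnip3l, were named after their values were seen.

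Of the HIF subunit genes, Hif1a had an r of -0.30 with Ndufa4l2 over the 12 libraries, Epas1 0.02 and Hif3a 0.74. Hif1a mRNA was lower in the mutants of both sexes, at 38.9, 39.2 and 39.2 against 31.1, 29.1 and 30.5 in females (-0.37, limma adjusted p = 0.00186) and at 34.0, 34.3 and 35.0 against 25.8, 27.3 and 29.2 in males (-0.32, limma adjusted p = 0.00586). HIF1A is known to be controlled mainly through protein stability, which RNA does not report. Epas1, the HIF2 alpha gene, was higher in mutant males (0.49, limma adjusted p = 0.0369), with 6.06, 5.44 and 8.67 against 4.73, 4.54 and 4.36. Without mutant male 3 the difference was 0.31 (limma adjusted p = 0.0869), and the call was also lost without mutant male 1, wild type female 1 or any 1 of the wild type males. It was lost as well with FPKM as deposited, with scaling to the library sum, with no filter, with only the groups compared and with the replicate block (limma adjusted p from 0.0577 to 0.176). Egln2, another prolyl hydroxylase, was higher in mutants in females (0.44, limma adjusted p = 0.00549) and males (0.33, limma adjusted p = 0.0275). The male call of Egln2 was lost without mutant male 1 or 2 or any 1 of the wild type males, and both calls were lost with FPKM as deposited and with scaling to the library sum. Among the 8 regulators the calls were 1 higher and 1 lower in mutant females, and 2 higher and 1 lower in mutant males, beside 28% and 20.3% of all genes called in either direction.

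A technical measure differed between the genotypes in the same libraries. Across genes, the deviation of a library from the mean correlated with the GC content of the gene at r between -0.46 and -0.27 in wild type libraries and between 0.11 and 0.50 in mutants. After a correction for GC content and length, Hif1a no longer passed and its sign turned (0.13 in females with limma adjusted p = 0.176, and 0.067 in males). With the same correction Egln2 (0.061 in females and 0.056 in males), Tfrc (0.0006), Plod2 (-0.24), Bnip3l (-0.36), Epas1 (0.36) and Eno1 (0.85) no longer passed. Ndufa4l2, at 59.3% GC the highest of the 8, had a male difference of 1.25 after the correction, beside 1.47 before it. The median r of the 7 with Ndufa4l2 after this correction was 0.818 over the 12 libraries and 0.871 with group means subtracted.

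Ndufa4, the paralog of Ndufa4l2 that serves the respiratory chain in most cells, was the far more abundant of the pair. It read 142, 132 and 161 in wild type females, 156, 138 and 159 in wild type males, 105, 112 and 95.5 in mutant females and 98.7, 113 and 111 in mutant males. It was lower in mutants in females (-0.47, limma adjusted p = 0.00568) and males (-0.49, limma adjusted p = 0.00747), without overlap. After the GC and length correction these differences were -0.21 and -0.23 and no longer passed (limma adjusted p = 0.160 and 0.139). Ndufa4l2 as a share of Ndufa4 was 3.604% to 8.12% in wild type males and 12.6% to 20.3% in wild type females. It was 19.1% to 29.1% in mutant males and 16.4% to 74.5% in mutant females.

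The cytochrome oxidase subunit 4 has a similar pair. Cox4i2, the isoform linked to low oxygen, had an r of 0.86 with Ndufa4l2, and its 6 values in males were 4.91, 5.62 and 7.52 in wild type against 8.66, 11.3 and 6.75 in mutants. Its genotype difference was 0.52 in males and 0.04 in females. Neither passed the limma test, and nor did those of Cox4i1, the general isoform (-0.07 and 0.21), which had an r of 0.32.

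Markers of cells that use these genes moved with the members in part. Of the 8 pericyte markers, Pdgfrb (r = 0.87), Notch3 (0.85), Abcc9 (0.70), Higd1b (0.66), Kcnj8 (0.56) and Cspg4 (0.46) had a positive r with Ndufa4l2. Rgs5 (-0.46) and Mcam (-0.62) had a negative one. The summed level of the 8 had an r of 0.46 over the 12 libraries and 0.43 with group means subtracted. It spanned 147 to 196 in the wild type and 177 to 217 in the mutant males, beside 164 to 178 and 146 to 212 in the females. Summed markers of red cells read 700, 961 and 7213 in wild type males, against 2746 to 12619 elsewhere. Their r with Ndufa4l2 was 0.48 over the 12 libraries and -0.02 with group means subtracted. Summed skeletal muscle markers spanned 944 to 1290 in the wild type male group and 544 to 881 in the mutant one, and 8 of 9 passed the limma test as lower in the mutants, as did 11.6% of all genes. Their r with Ndufa4l2 was -0.68 over the 12 libraries and 0.14 with group means subtracted. Smooth muscle and urothelial markers were present in all libraries. No marker was at 0 in all 3 libraries of a group, and the part of cell makeup in the members' differences was not tested.

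Depth could be recovered only relative to the deepest library. It was 0.810 to 1.00 in wild type and 0.582 to 0.717 in mutant libraries, without overlap, so depth and genotype cannot be told apart. Its r with Ndufa4l2 was -0.67, or -0.53 with group means subtracted. Summed immediate early genes, which respond to handling, were 48.4 to 66.7 in wild type and 64.6 to 94.5 in mutant libraries. The part of depth and handling in the members' differences was not tested.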

How the data were processed

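The 12 libraries were strand-specific and single-end, made from ribosomal-RNA-depleted total RNA with a quality number (RIN) above 9.5, per the labels' protocols. The authors deposited FPKM values for 56495 genes. The submitters' processing notes name Cufflinks 2.2.1, STAR 2.7.10a, bedtools 2.30.0 and cutadapt 4.1, and the builds mm39 and mm10, with no role given. Gene ends matched the GRCm38 annotation for 2.75% of genes, so positions are given as mm39, with 1 added to the starts, which are counted from 0. FPKM give no counts, so no counting intervals were computed; relative depth came from the steps between values under 0.05 FPKM. Exact 0 values can be failed estimates. The gene Rn7sk made up 12.2% of the FPKM sum in wild type male 1. It made up 13.8% in mutant male 1 and 14.9% in mutant male 3, and 0% in all other libraries. Scaling to the library sum takes in this difference.

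Libraries were scaled by the median ratio over the 11897 genes at 1 FPKM or more throughout (divisors 0.748 to 1.13). The 13904 genes reaching 1 FPKM in 3 or more libraries were tested as log2(scaled FPKM + 0.5), a scale that understates changes of low genes, with limma 3.58.1 (R 4.3.3, statmod 1.5.0), a mean per group, an intensity trend and Benjamini-Hochberg adjustment. The tests are two-sided, and a gene passed at an adjusted p under 0.05. Samples were grouped by the genotype and sex in the labels. The fit was tested on simulated data.

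The members and lists were chosen with earlier results of these data known. Named by rule were the 8 members; called genes of the wider list and of the HIF regulators without overlap between groups, up to 6 per direction and sex; Hif1a, Epas1, Ndufa4, Cox4i1 and Cox4i2; and the 10 genes most like Ndufa4l2, leaving out unnamed models, pseudogenes and short RNAs. Aldoa has more than 1 gene ID, and the one with the higher mean was used. Alternatives covered scaling, pseudocount, filter, a fit of only the groups compared, a replicate block, a GC and length correction (natural splines, values for 98.8% of genes) and leaving out each library. The GC correction of the likeness was added after seeing the data.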

Additional observations from a re-analysis of the deposited data

How the results depend on the processing

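Of the 8 members, 0 passed in females. In males, where the 1 that passed is the gene chosen on that comparison and nothing is read from the count, it was 0 with no filter, with the GC and length correction and with that correction plus the replicate block. Leaving out 1 library gave 0 to 1 in females, 0 to 3 in males, 0 to 2 between the wild type sexes, 0 to 1 between the mutant sexes and 0 to 0 for the difference between the sexes. A fit of only the 6 wild type libraries gave 1 between the wild type sexes. On the wider list, 3 passed in females: scaling to the library sum gave 5, while no filter, the GC and length correction and the correction with the block gave 0, and leaving out 1 library 0 to 7. The 1 in males became 0 with FPKM as deposited, no filter, the correction or the correction with the block, 2 with a filter at 5 FPKM, 4 with only the groups compared, and 0 to 10 leaving out 1 library. For the alternatives, the share of all genes called is given above only for mutants against wild type. It is given without mutant female 1 in both sexes, and without wild type male 3 in males. Nothing is read from the other alternative counts. The median r of 0.841 ran from 0.752 to 0.902 leaving out 1 library.

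Replicate numbers did not pair the libraries: deviations of same-numbered libraries correlated at 0.02, -0.07 and 0.01 in females and 0.17, 0.08 and -0.04 in males, and not every library matched its own number best. Between the sexes the range was -0.23 to 0.32, the highest for wild type female 3 and wild type male 3. With the replicate block, 0 members passed in females, 1 in males, 0 between the sexes in either genotype and 0 for the difference, and on the wider list 4 passed in females and 2 in males.

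Some differences of the members changed sign, and none passed the test where it did. Leaving out 1 library, the female differences ran from -0.12 to 0.47 for Vegfa, -0.32 to 0.74 for Slc2a1, -0.47 to 0.58 for Bnip3, -0.35 to 0.31 for Egln3, -0.043 to 0.69 for Hk2, -0.047 to 0.45 for Ldha and -0.82 to 0.081 for Ankrd37. The mutant sex differences ran from -0.44 to 0.16 for Vegfa, -0.85 to 0.21 for Slc2a1, -0.48 to 0.56 for Bnip3, -0.57 to 0.090 for Egln3, -0.51 to 0.17 for Hk2 and -0.59 to 0.31 for Ankrd37, and the difference between the sexes for Hk2 from -0.060 to 0.71. Tfrc and Cox4i1 in males ran from -0.35 to 0.13 and -0.11 to 0.0072, and Cox4i2 in females from -0.30 to 0.40. Scaling to the library sum gave -0.017 for Slc2a1, -0.099 for Ldha, -0.045 for Epas1, -0.035 for Cox4i1 and -0.19 for Cox4i2 in females and 0.037 for Ankrd37 between the mutant sexes. FPKM as deposited gave -0.060 for Cox4i2 in females, and 0.0513 and 0.0538 as the limma adjusted p of Hif1a in females and males. With the GC and length correction, with or without the block, Hif1a was 0.13 in females and 0.067 in males, Tfrc 0.0006 and 0.40, Plod2 0.14 in males, and in females Cox4i1 was -0.0033 and Cox4i2 -0.21. The cause was not tested.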
